A study of Mus musculus with 12 samples.

Results

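The chemokines and chemokine receptors were measured in 12 libraries of polyadenylated RNA from isolated mouse cardiomyocytes. They are the 54 of 22584 gene symbols that begin with Ccl, Cxcl, Ccr, Cxcr or Ackr followed by a number, or that are Cx3cl1 or Cx3cr1. There are 33 ligands, 18 signalling receptors and 3 atypical receptors among them. The libraries fell into 4 groups of 3 from C57BL6 hearts labelled wild type. CKD JV001 animals were injected with JV001 and went through uninephrectomy (loss of 1 kidney), AngII and a diet high in salt, with 12 weeks given in the labels. CKD saline animals had the same 3 procedures with saline injections and no duration given. Sham JV001 and sham saline animals had a sham operation for 12 weeks with injections of JV001 or saline. The labels give no more than the code name JV001, in a series titled for telomere recapping by gene therapy. The labels do not say whether libraries of 1 group came from separate animals, so the p-values measure a spread between samples that may be technical.

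Chemokines are small secreted or membrane-held proteins that guide leukocytes along gradients. They act through G protein-coupled receptors that signal through Gi proteins, and the atypical receptors take up ligands without that signal. In the heart they are known for bringing monocytes, neutrophils and lymphocytes into injured muscle, and most inflammatory ligands are made by macrophages, fibroblasts and endothelial cells after cytokine, NF-kB or interferon signals.

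A library held 25.2 to 37.0 times 1e6 counts, so that 3 reads corresponded to 0.0777 to 0.119 CPM (counts per 1e6 counts, scaled with TMM factors). Of the 54 members, 34 were among the 15004 genes that passed the filter on low counts. A mean log2 CPM of 10.8 to 12.9 for 12 of 12 ventricular cardiomyocyte markers was found across the libraries, with no such marker at 0. Library 3 of both CKD groups stood apart from libraries 1 and 2. In CKD JV001 library 3 the ventricular marker mean was 10.8, against 12.0 in both other libraries of that group, and its neutrophil marker mean was 4.12, against -0.018 and -0.11. In CKD saline library 3 the macrophage marker mean was 4.73, against 2.43 and 2.37, and the B cell marker mean was 0.80, against -3.17 and -2.19. Libraries 1 and 2 of the CKD groups were closer to each other than other pairs, with a median chi-square per gene of 3.84 in CKD JV001 and 2.31 in CKD saline. Sampling noise alone gives 0.455, so these pairs differed by more than that noise. That does not show whether they came from separate animals. They were used as the samples that the labels list. The pairs with library 3 had medians of 27.4 to 40.2. Sham saline library 1 also differed from its group, with medians of 17.9 and 18.6.

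The 10 macrophage markers summed to 329 to 741 CPM in CKD JV001, 67.8 to 344 CPM in CKD saline, 59.0 to 203 CPM in sham JV001 and 28.2 to 98.3 CPM in sham saline. The 10 neutrophil markers summed to 20.9 to 342 CPM in CKD JV001, 5.22 to 80.2 CPM in CKD saline, 4.45 to 7.94 CPM in sham JV001 and 0.907 to 61.8 CPM in sham saline. Ly6g and Ngp were at 0 in both sham groups, Camp in sham JV001 and Mmp8 in sham saline. Fibroblast markers summed to 2901 to 3832 CPM in CKD JV001, 633 to 2485 CPM in CKD saline, 625 to 1305 CPM in sham JV001 and 310.3 to 1187 CPM in sham saline. Many members are made by these cell types, and the part of their markers in the differences below was not tested. In bulk samples, fewer cells of a type and less RNA per cell cannot be told apart.

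**Figure D1:**
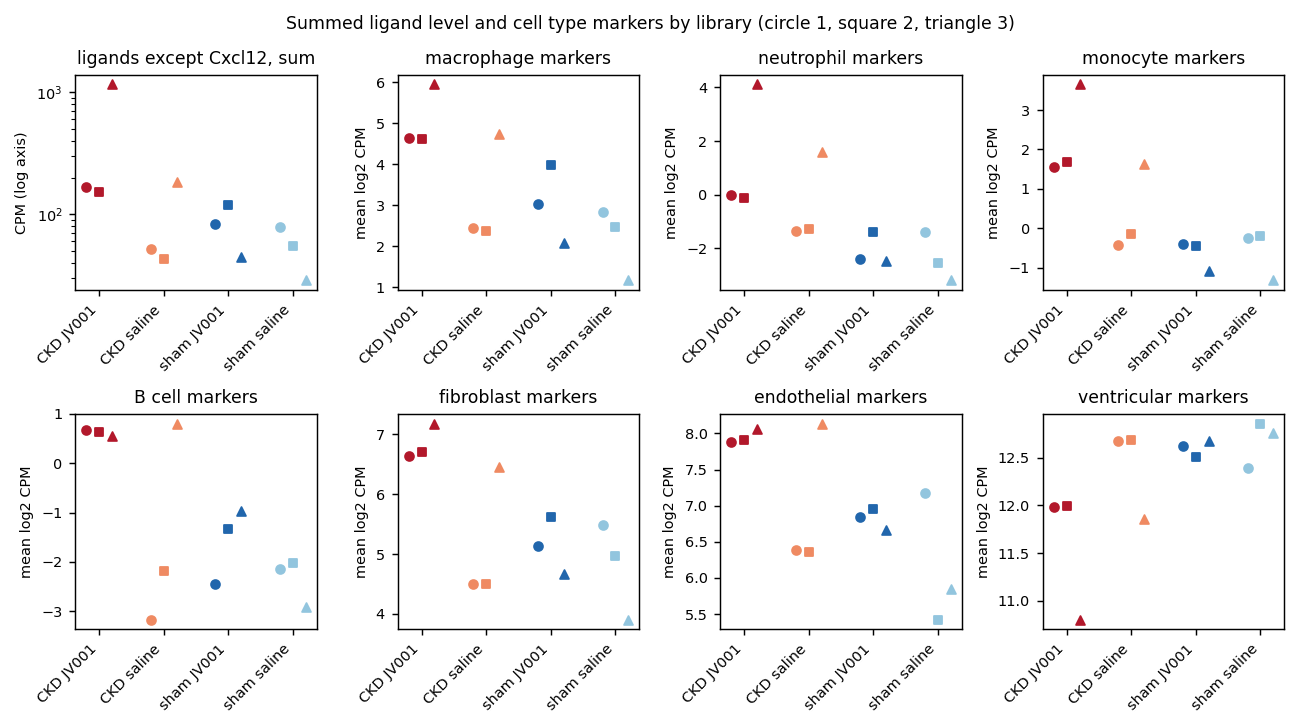
Summed CPM of all chemokine ligands except Cxcl12 (first panel, log axis) and mean log2 CPM of 7 lists of cell type markers in each library, by group from CKD JV001 to sham saline. Circles, squares and triangles are libraries 1, 2 and 3. The triangle of CKD JV001 is the highest point for ligands, macrophages, neutrophils and monocytes and the lowest for ventricular markers.

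Levels were compared between members per gene length, in the authors' FPKM. Averaged over the 12 libraries, Cxcl12 (38.2 FPKM) and Ackr3 (37.3 FPKM) were the highest, followed by Cxcl1 (24.9), Cxcl10 (18.8), Ccl2 (17.5) and Ccl7 (11.6). In each of the last 4, CKD JV001 library 3 was the highest library. In CPM, the ligands other than Cxcl12 summed to 167, 151 and 1164 in CKD JV001, 51.5, 43.0 and 183 in CKD saline, 83.6, 118 and 44.6 in sham JV001 and 78.8, 55.1 and 28.7 in sham saline. Cxcl12 made up 30.3% of ligand CPM in CKD JV001 library 3 and 54.8% to 83.8% in the other 11 libraries. The highest library was CKD JV001 library 3 for 25 of the 34 tested members (73.5%), and for 27.9% of all genes tested.

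**Figure D2:**
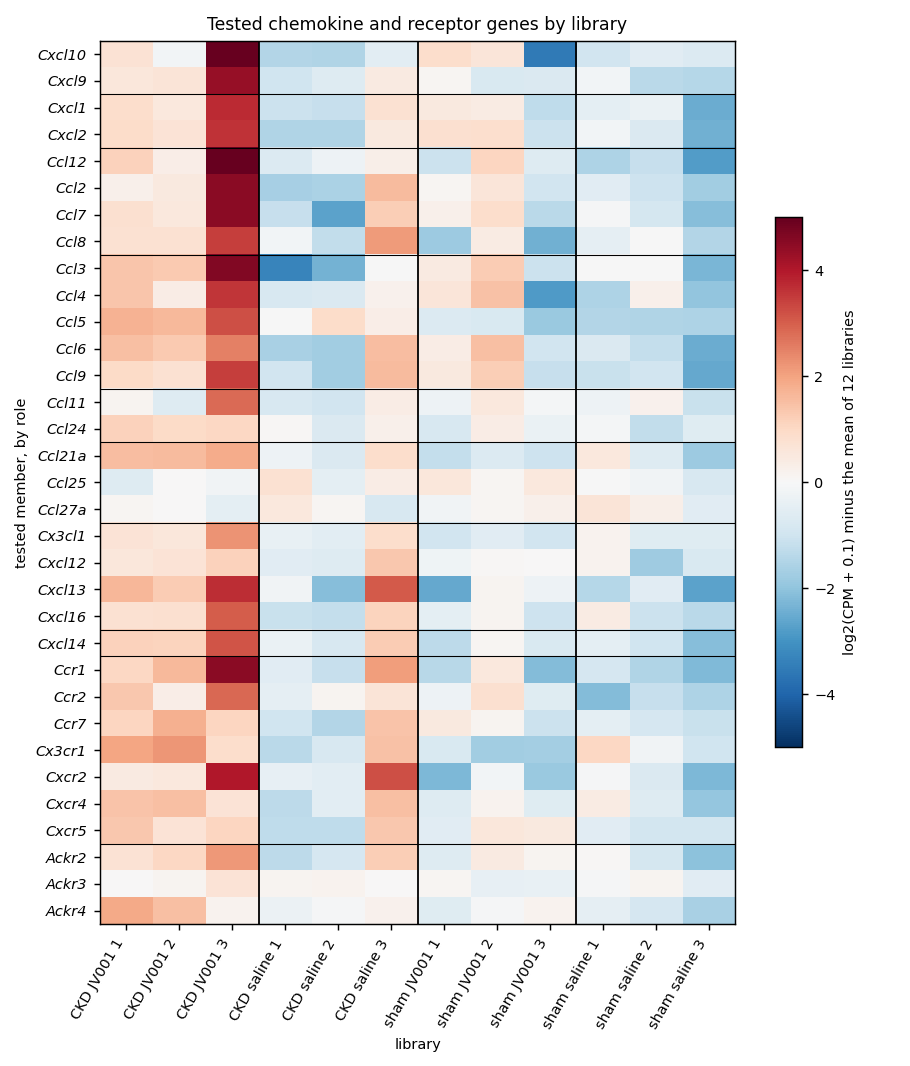
Level of 33 of the 34 tested members in each of the 12 libraries, as log2(CPM + 0.1) minus the member's mean over the libraries. Colours end 5 above and below the mean, and lines separate roles and groups. CKD JV001 library 3 has the deepest red for most inflammatory ligands. Ccl21a, Ccl24 and Ccl5 are above the mean in all 3 CKD JV001 libraries, as are Cxcl9, Cxcl14 and Cxcl16 among others.

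Cxcl9 and Cxcl10 draw activated T cells through Cxcr3 and are classic interferon targets. Cxcl10 had 2.44, 1.30 and 219.5 CPM in CKD JV001, 0.444, 0.429 and 0.953 in CKD saline, 2.66, 2.24 and 0.0303 in sham JV001 and 0.675, 0.928 and 0.855 in sham saline. It was above 3 CPM in CKD JV001 library 3 alone, where it was 117 times the mean of libraries 1 and 2. Cxcl9 had 7.50, 7.93 and 105 CPM in CKD JV001, 2.48, 3.23 and 7.07 in CKD saline, 5.38, 2.97 and 3.06 in sham JV001 and 4.56, 1.91 and 1.81 in sham saline. All 3 CKD JV001 libraries lay above the other 9, the lowest only just above CKD saline library 3, and library 3 was 13.6 times the mean of libraries 1 and 2. Their shared receptor gene Cxcr3 was not tested, with 23 reads in all libraries together.

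Cxcl1 and Cxcl2 attract neutrophils through Cxcr2. Cxcl1 had 21.1, 16.5 and 152 CPM in CKD JV001, 5.37, 5.05 and 19.1 in CKD saline, 15.9, 15.1 and 4.73 in sham JV001 and 8.19, 8.91 and 1.97 in sham saline. Cxcl2 had 9.91, 8.28 and 64.9 CPM in CKD JV001, 1.74, 1.78 and 7.31 in CKD saline, 9.15, 9.23 and 2.39 in sham JV001 and 4.66, 3.08 and 0.907 in sham saline. Library 3 of CKD JV001 was 8.08 times the mean of libraries 1 and 2 for Cxcl1 and 7.14 times for Cxcl2. In Cxcl1 the CKD groups overlapped, and in Cxcl2 they did not. Cxcr2, the receptor, had 0.538, 0.584 and 7.54 CPM in CKD JV001, 0.259, 0.231 and 4.29 in CKD saline, 0, 0.336 and 0.0303 in sham JV001 and 0.353, 0.186 and 0 in sham saline. Both CKD libraries numbered 3 were high for Cxcr2, at 13.4 times the mean of libraries 1 and 2 in CKD JV001 and 17.5 times in CKD saline. The related ligand Cxcl5 had 64 reads in all and Cxcl3 had 1, too few for the test.

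Ccl2, Ccl7 and Ccl12 recruit Ccr2-bearing monocytes, and Ccl8 has a human counterpart that is a monocyte chemoattractant. Ccl2 had 5.67, 6.58 and 109.7 CPM in CKD JV001, 1.41, 1.48 and 14.1 in CKD saline, 5.04, 7.09 and 2.33 in sham JV001 and 3.15, 2.23 and 1.35 in sham saline. Ccl7 had 5.45, 4.48 and 71.4 CPM in CKD JV001, 1.33, 0.396 and 7.19 in CKD saline, 3.65, 5.66 and 1.15 in sham JV001 and 2.89, 1.59 and 0.622 in sham saline. Library 3 was the highest of its CKD group for both, in CKD JV001 at 17.9 times the mean of libraries 1 and 2 for Ccl2 and 14.4 times for Ccl7. Ccl12, a rodent gene, had 1.84, 0.981 and 32.2 CPM in CKD JV001, 0.444, 0.627 and 0.953 in CKD saline, 0.309, 1.74 and 0.454 in sham JV001 and 0.193, 0.292 and 0.0259 in sham saline. It did not overlap between CKD JV001 and CKD saline, although CKD JV001 library 2 was only just above CKD saline library 3. Ccl8 had 2.66, 2.68 and 18.0 CPM in CKD JV001, 1.41, 0.594 and 7.03 in CKD saline, 0.371, 2.10 and 0.212 in sham JV001 and 1.09, 1.51 and 0.492 in sham saline. It overlapped between the CKD groups. Ccr2, the receptor of Ccl2, Ccl7 and Ccl12 on inflammatory monocytes, had 1.77, 0.849 and 5.40 CPM in CKD JV001, 0.444, 0.726 and 1.07 in CKD saline, 0.526, 1.21 and 0.394 in sham JV001 and 0.0643, 0.239 and 0.155 in sham saline. Its sham saline libraries held 2, 9 and 6 reads and lay below all other 9.

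Ccl3, Ccl4 and Ccl5 attract monocytes and T cells, and Ccl6 and Ccl9 are rodent chemokines that act on Ccr1, as Ccl3 and Ccl5 do. Ccl3 had 3.45, 3.29 and 33.8 CPM in CKD JV001, 0.0370, 0.165 and 1.23 in CKD saline, 1.76, 3.17 and 0.545 in sham JV001 and 1.22, 1.22 and 0.181 in sham saline. The 3 CKD JV001 libraries were above the other 9, with a narrow margin over sham JV001 library 2. Ccl4 had 4.05, 1.96 and 19.1 CPM in CKD JV001, 0.814, 0.858 and 1.75 in CKD saline, 2.32, 4.32 and 0.121 in sham JV001 and 0.450, 1.80 and 0.311 in sham saline. Ccl5 had 1.11, 1.01 and 3.29 CPM in CKD JV001, 0.259, 0.594 and 0.357 in CKD saline, 0.124, 0.112 and 0 in sham JV001 and 0.0321, 0.0265 and 0.0259 in sham saline. Ccl4 overlapped between CKD JV001 and sham JV001, while for Ccl5 the lowest CKD JV001 library was above the highest of the other 9. Ccl5 rested on 35, 38 and 112 reads in CKD JV001, 7, 18 and 9 in CKD saline, 4, 4 and 0 in sham JV001 and 1, 1 and 1 in sham saline. Ccl6 had 16.0, 14.1 and 33.1 CPM in CKD JV001, 1.78, 1.62 and 16.4 in CKD saline, 7.20, 16.0 and 2.85 in sham JV001 and 3.34, 2.39 and 0.933 in sham saline. Ccl9 had 10.1, 8.89 and 57.7 CPM in CKD JV001, 2.59, 1.48 and 15.8 in CKD saline, 7.33, 12.4 and 2.30 in sham JV001 and 2.35, 2.63 and 0.803 in sham saline. For Ccl6 and Ccl9, CKD saline library 3 and sham JV001 library 2 reached into the CKD JV001 range.

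The receptor Ccr1 averaged 0.622 FPKM, a value per length, against 1.13 to 6.94 FPKM for these 5 ligands. Ccr1 had 1.08, 1.70 and 13.1 CPM in CKD JV001, 0.296, 0.165 and 2.38 in CKD saline, 0.124, 0.729 and 0.0303 in sham JV001 and 0.225, 0.106 and 0.0259 in sham saline. Library 3 was the highest of both CKD groups for Ccr1, and these groups overlapped.

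The promoters of 5 of these ligands are shown because the ligands shared the high value in CKD JV001 library 3, and because they hold letters of the NF-kB motif GGANNTTCC or the interferon response motif GAAANNGAA. They were chosen after their values were seen, so they show no link between motif and level. Each runs from 250 bases before to 50 bases after the gene's start, 5′ to 3′ on the gene's strand, from RefSeq on GRCm38.p6, an older build than the authors' GRCm39. Capitals mark matches of these motifs, of the STAT motif TTCNNNGAA and of TATAAA on either strand.
Cxcl10, chr5:92348840-92349139, minus strand: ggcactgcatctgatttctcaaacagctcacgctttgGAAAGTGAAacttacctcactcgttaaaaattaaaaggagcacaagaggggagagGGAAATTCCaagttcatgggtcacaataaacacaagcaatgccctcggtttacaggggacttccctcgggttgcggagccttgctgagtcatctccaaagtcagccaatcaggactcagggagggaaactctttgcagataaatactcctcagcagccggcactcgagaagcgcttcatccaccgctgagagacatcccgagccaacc
Cxcl9, chr5:92328030-92328329, minus strand: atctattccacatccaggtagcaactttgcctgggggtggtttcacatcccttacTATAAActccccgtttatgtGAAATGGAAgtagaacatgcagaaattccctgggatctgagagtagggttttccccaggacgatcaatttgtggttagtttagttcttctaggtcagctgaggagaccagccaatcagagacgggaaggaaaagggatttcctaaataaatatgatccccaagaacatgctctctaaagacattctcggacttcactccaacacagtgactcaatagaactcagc
Cxcl1, chr5:90890995-90891294, plus strand: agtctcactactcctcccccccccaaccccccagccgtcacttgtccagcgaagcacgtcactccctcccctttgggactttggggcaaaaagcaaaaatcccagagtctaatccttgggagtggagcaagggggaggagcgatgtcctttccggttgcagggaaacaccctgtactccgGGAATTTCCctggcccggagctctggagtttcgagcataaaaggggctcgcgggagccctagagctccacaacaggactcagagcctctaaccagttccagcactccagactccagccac
Cxcl2, chr5:90903649-90903948, plus strand: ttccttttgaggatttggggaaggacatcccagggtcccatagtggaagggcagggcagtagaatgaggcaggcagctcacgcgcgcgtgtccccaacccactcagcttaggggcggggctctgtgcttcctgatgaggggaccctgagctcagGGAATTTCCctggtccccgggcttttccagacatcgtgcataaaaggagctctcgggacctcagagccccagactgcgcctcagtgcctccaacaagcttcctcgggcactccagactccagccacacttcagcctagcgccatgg
Ccl12, chr11:82101595-82101894, plus strand: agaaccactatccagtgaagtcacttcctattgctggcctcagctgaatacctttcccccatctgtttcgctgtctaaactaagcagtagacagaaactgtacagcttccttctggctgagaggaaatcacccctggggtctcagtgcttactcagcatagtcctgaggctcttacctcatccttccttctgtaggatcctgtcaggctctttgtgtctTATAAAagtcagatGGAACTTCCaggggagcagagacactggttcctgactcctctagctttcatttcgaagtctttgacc

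Of the 54 members, 41 had a promoter in the table, 24 of them tested members. The NF-kB letters were found in 6 of the 41 (14.6%), and in 4.26% of all 32851 promoters. Tested members with them were Ccl12, Cxcl1, Cxcl10 and Cxcl2. The interferon letters were found in 7 of the 41 (17.1%), and in 8.56% of all promoters, with Ccl3, Ccr2, Cxcl10, Cxcl14 and Cxcl9 as the tested members. The STAT letters were found in 4 members (9.76%) and 8.3% of all promoters, and TATAAA in 14 members (34.1%) and 13.6% of all promoters. A member counted if any of its promoters held the letters, and 4 members had more than 1 promoter. The share of all promoters counted each promoter singly, so the member shares can be raised by this. No match of 1 motif overlapped a match of another in any member's promoter. Several members are neighbours in the genome. Among protein-coding genes in the RefSeq order, Ccl2, Ccl7, Ccl11, Ccl12 and Ccl8 lie next to each other on chromosome 11, as do Ccl5, Ccl9, Ccl6, Ccl3 and Ccl4. Cxcl3, Cxcl15, Cxcl1 and Cxcl2 are neighbours on chromosome 5, and Ccr1, Ccr1l1, Ccr3 and Ccr2 on chromosome 9.

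The eosinophil attractants Ccl11 and Ccl24 act on Ccr3. Ccl11 had 1.74, 0.955 and 11.8 CPM in CKD JV001, 0.851, 0.759 and 2.03 in CKD saline, 1.30, 2.30 and 1.45 in sham JV001 and 1.29, 1.80 and 0.674 in sham saline. It was high in CKD JV001 library 3 alone, 8.77 times the mean of libraries 1 and 2. Ccl24 was low but even, with 1.14, 0.981 and 1.03 CPM in CKD JV001 and 0.133 to 0.617 CPM in the other 9 libraries. Ccr3 had 1 read in all libraries.

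Ccl21a, the Ccr7 ligand of lymphatic vessels and lymph nodes, had 12.4, 12.7 and 15.6 CPM in CKD JV001, 3.48, 2.51 and 7.90 in CKD saline, 1.76, 2.61 and 2.00 in sham JV001 and 6.11, 2.65 and 1.11 in sham saline. Its CKD JV001 libraries lay close together, library 3 at 1.24 times the mean of libraries 1 and 2, and all were above the other 9 libraries. Ccl21a has a near-identical copy, Ccl21b, listed with 1 read, and counting could have split reads between such copies. Ccr7, which guides dendritic cells and T cells, reached 0.475, 0.822 and 0.470 CPM in CKD JV001, 0.0370, 0 and 0.636 in CKD saline, 0.278, 0.196 and 0.0303 in sham JV001 and 0.0964, 0.0530 and 0.0259 in sham saline. Ackr4, which takes up Ccl19, Ccl21 and Ccl25, had 7.92, 5.97 and 2.29 CPM in CKD JV001, 1.63, 1.98 and 2.38 in CKD saline, 1.30, 1.96 and 2.30 in sham JV001 and 1.48, 1.09 and 0.596 in sham saline. Here CKD JV001 library 3 was lower than libraries 1 and 2, the opposite of the inflammatory ligands, and lay within the range of the CKD saline and sham JV001 libraries. Ccl27a, a Ccr10 ligand with a near-identical copy in Ccl27b, had 3.01, 2.89 and 1.97 CPM in CKD JV001, 4.07, 3.03 and 1.59 in CKD saline, 2.50, 3.06 and 3.39 in sham JV001 and 4.47, 3.50 and 1.89 in sham saline. Its groups overlapped. Ccl25, the Ccr9 ligand, was the only tested member whose CKD JV001 libraries (0.380, 0.663 and 0.558 CPM) all lay below the sham JV001 libraries (1.02, 0.701 and 0.969 CPM).

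Cxcl12 keeps leukocytes and progenitor cells in place through Cxcr4, and Ackr3 scavenges it. Cxcl12 had 336, 366 and 506 CPM in CKD JV001, 157, 148 and 591 in CKD saline, 200.1, 239.9 and 231 in sham JV001 and 259, 66.8 and 135 in sham saline. CKD saline library 3 was its highest library, 3.87 times the mean of libraries 1 and 2 of that group. Cxcr4 had 11.9, 12.6 and 7.22 CPM in CKD JV001, 1.70, 3.00 and 12.8 in CKD saline, 2.81, 4.96 and 2.88 in sham JV001 and 5.88, 2.78 and 1.09 in sham saline. CKD saline library 3 was level with the CKD JV001 libraries, 5.42 times the mean of libraries 1 and 2 of its own group. Ackr3 had 86.4, 93.5 and 136 CPM in CKD JV001, 92.4, 95.5 and 85.7 in CKD saline, 90.9, 63.9 and 65.3 in sham JV001 and 82.2, 92.6 and 57.3 in sham saline. Among the tested members Ackr3 varied little between groups, with 105 ± 26.8 CPM in CKD JV001, 91.2 ± 5.03 in CKD saline, 73.4 ± 15.2 in sham JV001 and 77.4 ± 18.1 in sham saline (SD, n = 3).

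Cx3cl1 is a membrane-held ligand of endothelial cells, and Cx3cr1 is its receptor on monocytes and tissue macrophages. Cx3cl1 had 22.9, 21.3 and 68.5 CPM in CKD JV001, 10.9, 9.80 and 26.3 in CKD saline, 7.27, 9.53 and 7.33 in sham JV001 and 16.3, 9.44 and 9.40 in sham saline. Cx3cr1 had 3.04, 3.63 and 1.38 CPM in CKD JV001, 0.222, 0.363 and 2.14 in CKD saline, 0.371, 0.140 and 0.151 in sham JV001 and 1.54, 0.610 and 0.311 in sham saline. The CKD JV001 libraries were above the sham JV001 libraries for both, and CKD saline library 3 overlapped CKD JV001. For Cx3cr1 the order within CKD JV001 was reversed, with library 3 at 0.413 of the mean of libraries 1 and 2.

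Cxcl16 is a membrane-held ligand of Cxcr6, Cxcl13 guides B cells through Cxcr5, and Cxcl14 has no settled receptor. Cxcl16 had 11.8, 12.1 and 56.9 CPM in CKD JV001, 3.07, 2.90 and 14.9 in CKD saline, 4.89, 7.54 and 3.24 in sham JV001 and 9.22, 3.18 and 2.62 in sham saline. Cxcl13 had 3.55, 2.65 and 14.5 CPM in CKD JV001, 0.925, 0.165 and 9.57 in CKD saline, 0.0928, 1.15 and 0.848 in sham JV001 and 0.321, 0.663 and 0.0777 in sham saline. Cxcl14 had 18.3, 17.8 and 72.1 CPM in CKD JV001, 6.37, 4.62 and 19.7 in CKD saline, 3.22, 8.64 and 4.79 in sham JV001 and 5.75, 3.95 and 1.76 in sham saline. In all 3 genes both CKD libraries numbered 3 were the highest of their groups, and all CKD JV001 libraries were above the sham JV001 libraries. Cxcr5 was low, with 16, 11 and 14 reads in CKD JV001, 0, 0 and 13 in CKD saline, 2, 9 and 8 in sham JV001 and 2, 1 and 1 in sham saline. Ackr2, a scavenger of inflammatory CC chemokines, had 1.84, 2.28 and 5.11 CPM in CKD JV001, 0.370, 0.561 and 2.62 in CKD saline, 0.649, 1.49 and 1.18 in sham JV001 and 1.12, 0.530 and 0.181 in sham saline. It overlapped between the CKD groups.

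**Figure D3:**
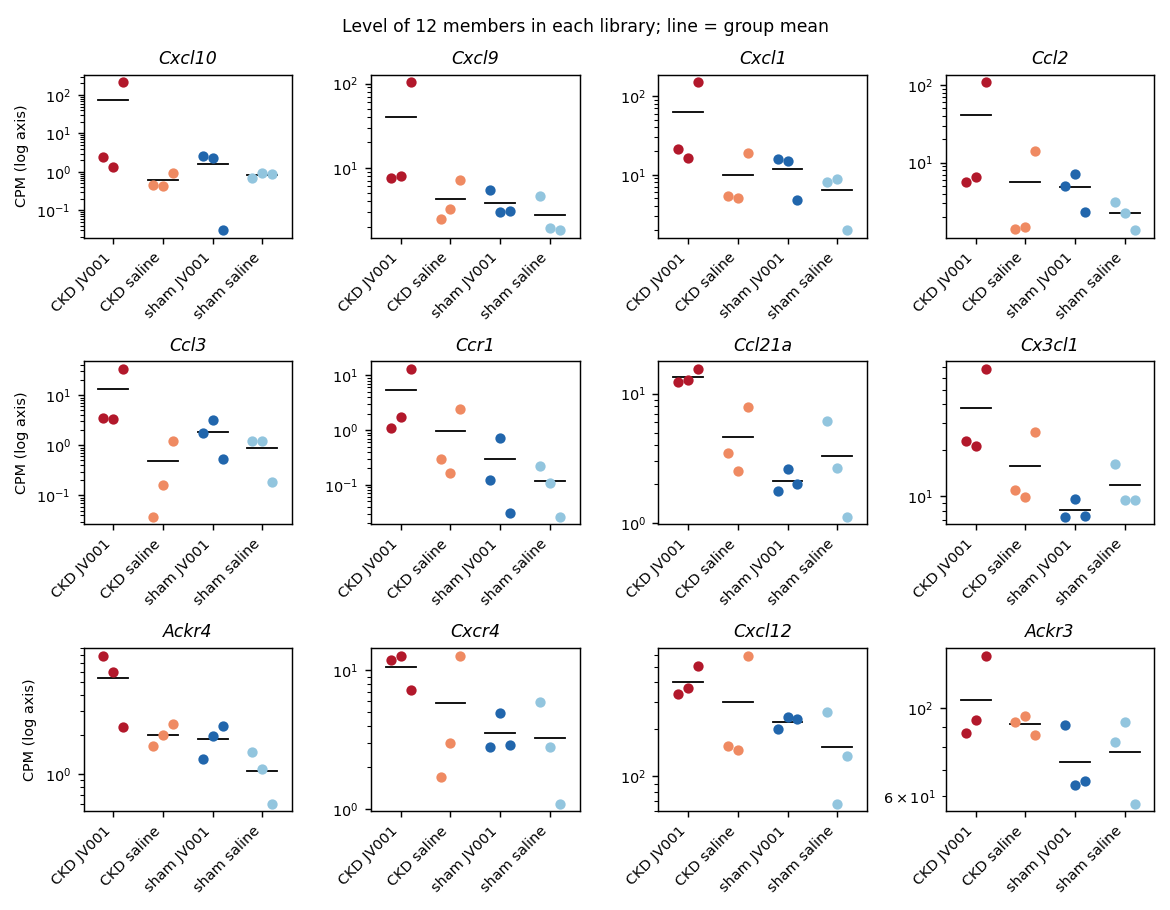
Level of 12 members in each library in CPM (log axes), with a point per library and a line at the group mean, by group from CKD JV001 to sham saline. In Cxcl10, Cxcl9, Cxcl1 and Ccl2 the CKD JV001 mean lies between 1 high library and the other two, whereas in Ccl21a the 3 CKD JV001 libraries lie close together at 12.4, 12.7 and 15.6 CPM.

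Within the CKD model, most chemokine and receptor genes had higher mean levels with JV001 than with saline, by amounts that differed widely between libraries, and whether they passed depended on the fit. In the fit of all 12 libraries Cxcl10, Ccl3, Ccl12 and Cxcl9 had the largest differences, and Ackr3, Ccl25 and Ccl27a the lowest. That order did not hold with library 3 of both CKD groups left out, where Cxcl9 was lower than Cx3cr1 and Cxcr4. In the edgeR quasi-likelihood test 0 of the 34 tested members had an adjusted p under 0.05 (Benjamini-Hochberg over all genes tested), and 0 of all 15004 genes did (0%). At an unadjusted p under 0.05, 19 members were higher and none lower in CKD JV001, against 9.29% of all genes higher. The groups did not overlap, with CKD JV001 higher, in 10 members, among them Ccl3, Ccl4, Ccl5, Ccl12, Ccl21a, Ccl24, Cxcl2, Cxcl9 and Cxcl10, against 8.22% of all genes. Of the tested members 32 of 34 had a positive log2 fold change, with a median of 1.75, against 51.4% of all genes and a median of 0.022. A low member could pass the filter through the group in which it was high, so these counts describe the members and support no test. The 5 members with the smallest p all had an adjusted p of 0.276. Among them were Ccl3 with a log2 fold change of 4.84 (SE 1.32), Cxcl10 with 6.94 (SE 1.90), Cxcl9 with 3.23 (SE 0.95) and Ccl12 with 4.11 (SE 1.26).

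By role, both tested Cxcr3 ligands and both Cxcr2 ligands had positive values, with medians of 5.09 and 2.81. The median was 3.02 for Ccl2, Ccl7, Ccl8 and Ccl12, 2.14 for Ccl3, Ccl4, Ccl5, Ccl6 and Ccl9 and 1.65 for the 2 Ccr3 ligands. The 8 tested signalling receptors were all positive with a median of 1.49, and the 3 atypical receptors had a median of 1.38. Cxcl12, Cxcl13, Cxcl16 and Cx3cl1 had a median of 1.11. Ccl21a was positive while Ccl25 and Ccl27a were negative, at -0.63 and -0.15.

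This comparison turned on the libraries numbered 3. Without CKD JV001 library 3, the median of the tested members was 0.84, and edgeR called 0 of 34 members and 0 of all 15402 genes. Without CKD saline library 3, 19 of 36 tested members passed with higher levels in CKD JV001, against 13.2% of all genes, and the median was 3.26. They included Cxcl9 at 3.82 (SE 1.16, adjusted p = 0.044), Ccl2 at 4.83 (SE 1.35, adjusted p = 0.0386) and Ccl6 at 3.63 (SE 0.79, adjusted p = 0.0326). With library 3 of both CKD groups left out, 14 of 35 passed, all higher, against 9.77% of all genes. The 14 included Ackr4, Ccl2, Ccl3, Ccl6, Ccl21a, Ccr7, Cx3cl1, Cx3cr1, Cxcl2, Cxcl14, Cxcl16, Cxcr4 and Cxcr5. In that fit Ccl3 stood at 4.95 (SE 1.13, adjusted p = 0.0228), Cx3cr1 at 3.46 (SE 0.81, adjusted p = 0.0237), Cxcr4 at 2.35 (SE 0.62, adjusted p = 0.0314) and Ackr4 at 1.91 (SE 0.44, adjusted p = 0.0234). Cxcl10 did not pass there, at 2.06 (SE 1.15, adjusted p = 0.213), nor did Cxcl9, at 1.41 (SE 0.46, adjusted p = 0.0548). The 2 remaining CKD libraries of each group were the close pairs described above, so the spread behind these p-values is that of such pairs in the CKD groups. The macrophage marker means in libraries 1 and 2 were 4.63 and 4.62 log2 CPM in CKD JV001 and 2.43 and 2.37 in CKD saline. B cell markers were at 0.68 and 0.63 in CKD JV001 and -3.17 and -2.19 in CKD saline. Fibroblast markers were at 6.64 and 6.71 in CKD JV001 and 4.51 and 4.49 in CKD saline, and ventricular markers at 11.98 and 11.99 in CKD JV001 and 12.68 and 12.68 in CKD saline. The part of these markers in the calls was not tested.

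**Figure D4:**
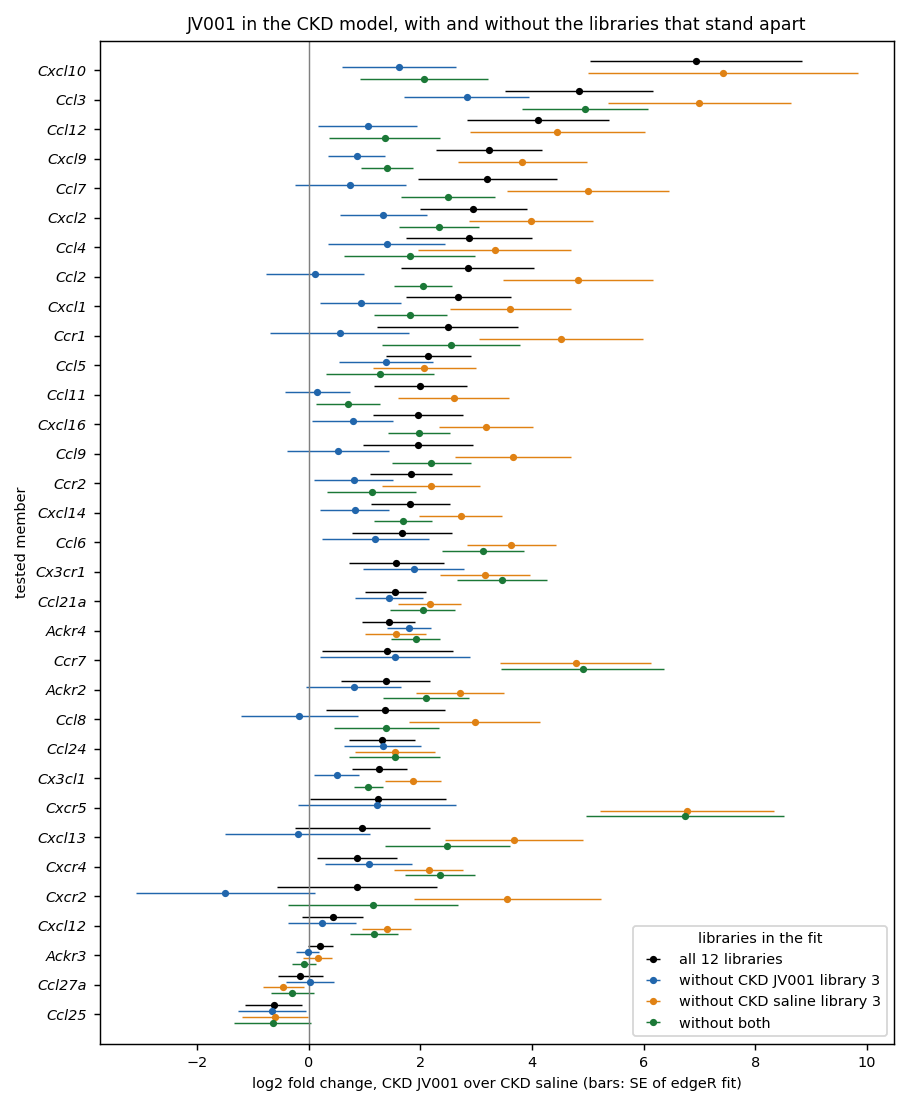
Log2 fold change of 33 of the 34 tested members between CKD JV001 and CKD saline in 4 edgeR fits, with bars for the SE, ordered by the fit of all 12 libraries. For most inflammatory ligands the value without CKD JV001 library 3 (blue) is the lowest and that without CKD saline library 3 (orange) the highest, with Ccl2 at 2.85 in all 12 libraries. Cxcr5 had 0 reads in CKD saline libraries 1 and 2, so its orange and green values depend on the prior count.

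The labels do not pair the libraries, and the replicate numbers were taken to pair the CKD groups. That choice came from the same counts, in which library 3 stood apart in both groups. The block takes out that same library 3 spread, so its calls are no separate evidence. In a fit of these 2 groups alone with the replicate number as a block, added after seeing the data, 16 of 34 members passed, all higher in CKD JV001, against 10.4% of all genes. They included Ccl3 at 4.91 (SE 0.36, adjusted p = 0.0113), Ccl2 at 2.45 (SE 0.26, adjusted p = 0.0114), Cxcl1 at 2.25 (SE 0.30, adjusted p = 0.0143), Ccl9 at 2.13 (SE 0.18, adjusted p = 0.0113) and Cxcl16 at 1.99 (SE 0.13, adjusted p = 0.0113). Cxcl10 did not pass, at 4.96 (SE 1.58, adjusted p = 0.0841), nor did Cxcl9, at 2.30 (SE 0.60, adjusted p = 0.0526), or Ccl12, at 2.78 (SE 0.98, adjusted p = 0.105). The fit of the same 2 groups without the block called 0 members and 0 of all 14289 genes. The block in the fit of all 12 libraries also called 0 members. The paired fit has 2 residual degrees of freedom among 6 libraries, and library 1 of CKD JV001 deviated most like library 2, not library 1, of CKD saline. Its p-values and SEs hold only if the numbers pair the samples, which these counts cannot show.

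DESeq2, run as an alternative, called 2 members higher in CKD JV001 than in CKD saline, Ccl3 and Ccl12, against 0.293% of all genes. It gave no adjusted p for Ccl2, Cxcl2, Cxcl9, Cxcl10 and Cxcr2. Limma on log2(FPKM + 1) or log2(FPKM + 0.1) called 0 of the 25 members it tested here.

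Under JV001, Ccl5, Ccl21a, Cx3cl1, Cx3cr1 and Cxcl14 were higher in all CKD libraries than in all sham libraries and came closest to passing. By edgeR 0 of 34 tested members passed, and 3 of all genes did (0.02%), each lower in CKD JV001. At an unadjusted p under 0.05, 22 members were higher in CKD JV001, against 14.8% of all genes. The groups did not overlap in 20 members that were higher, against 22.9% of all genes, and in 1 that was lower, Ccl25. The median log2 fold change of the tested members was 2.29, against 0.022 over all genes. The smallest p-values belonged to Ccl5 at 4.45 (SE 0.88, adjusted p = 0.0786), Ccl21a at 2.67 (SE 0.57, adjusted p = 0.0826), Cx3cl1 at 2.22 (SE 0.51, adjusted p = 0.0883), Cx3cr1 at 3.59 (SE 0.94, adjusted p = 0.0937) and Cxcl14 at 2.70 (SE 0.73, adjusted p = 0.0954). In CKD JV001, library 3 stood at 3.11 times the mean of libraries 1 and 2 for Ccl5, 1.24 for Ccl21a, 3.10 for Cx3cl1, 0.413 for Cx3cr1 and 3.99 for Cxcl14.

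Some alternatives moved all or most of these 5 past the threshold, and others did not. Another scaling of library size, no filter, a stricter filter, the replicate block and each fit without 1 library called 0 members. Of 25 members tested by limma, 2 passed on log2(FPKM + 1) and 1 on log2(FPKM + 0.1). DESeq2 called 12 members higher, against 7.38% of all genes, among them Ackr4, Ccl5, Ccl8, Ccl12, Ccl21a, Ccr1, Cx3cl1, Cx3cr1, Cxcl13, Cxcl14 and Cxcl16. It gave no adjusted p for Ccl2, Ccr7, Cxcl2, Cxcl9, Cxcl10, Cxcr2 and Cxcr5. A fit of the CKD JV001 and sham JV001 libraries alone called 5, against 4.13% of all genes: Ccl5, Ccl21a, Cx3cl1, Cx3cr1 and Cxcr4. With library 3 of both CKD groups left out, 6 of 35 passed, against 3.77% of all genes: Ackr4, Ccl5, Ccl21a, Cx3cl1, Cx3cr1 and Cxcl14. There Ccl21a stood at 2.55 (SE 0.52, adjusted p = 0.0184) and Ccl5 at 3.68 (SE 0.95, adjusted p = 0.0396), and the median over the tested members was 0.88. The CKD JV001 libraries left in that fit were the close pair described above. Without CKD JV001 library 3 alone the median was 0.96 and 0 members passed. Cx3cl1 stood at 1.46 (SE 0.40, adjusted p = 0.158) in that fit. Endothelial markers summed to 2686 to 3373 CPM in CKD JV001 and 1229 to 1479 CPM in sham JV001, and their part in the Cx3cl1 values was not tested. Erythroid markers averaged 3.19, 3.12 and 4.63 log2 CPM in CKD JV001 and 0.36, 1.58 and -0.66 in sham JV001.

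Set against all 9 other libraries, the 3 CKD JV001 libraries were higher without overlap in 6 of 34 tested members (17.6%), against 4.47% of all genes. These included Ccl3, Ccl5, Ccl21a, Ccl24 and Cxcl9. For Ccl3 and Cxcl9 the margin was narrow. For Ccl21a the lowest CKD JV001 library had 12.4 CPM and the highest other library 7.90 CPM.

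Under saline, Ccl5 and Ccr2 had the smallest p-values between the CKD model and sham operation, both with higher levels in CKD saline. By edgeR 0 of 34 members passed, and 0 of all genes did (0%). DESeq2 and limma on both FPKM scales also called 0 members. Limma tested 25 members, and DESeq2 gave no adjusted p for Ccl2, Cxcl2, Cxcl9, Cxcl10 and Cxcr2. At an unadjusted p under 0.05, 3 members were higher in CKD saline, against 2.15% of all genes, and 4 did not overlap with CKD saline higher, against 4.12%. Those 4 were Ackr4, Ccl5, Ccl12 and Ccr2. Ccl5 had a log2 fold change of 3.68 (SE 0.96, adjusted p = 0.812). That fitted value depends on the prior count, since sham saline held 3 Ccl5 reads in all and CKD saline 34. The ratio of the summed reads, scaled for library size, was 14.8, with an exact 95% interval of 4.64 to 75.1 that covers counting error only. Ccr2 had a log2 fold change of 2.24 (SE 0.80, adjusted p = 0.941), Cxcl13 of 3.31 (SE 1.36, adjusted p = 0.941) and Ccr1 of 2.98 (SE 1.44, adjusted p = 0.941). The median over members was 0.88 with all libraries and -0.021 without CKD saline library 3, and it was 1.57 without sham saline library 1. Neutrophil, B cell, erythroid, endothelial and fibroblast markers were also higher in CKD saline library 3 than in libraries 1 and 2. Erythroid markers averaged 1.58, 2.00 and 5.38 log2 CPM in CKD saline and 1.64, 1.03 and -0.28 in sham saline, and 4 of 5 tested had an unadjusted p under 0.05, all higher in CKD saline. The part of these markers was not tested.

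In sham animals the JV001 and saline libraries overlapped for most members. By edgeR 0 of 34 members passed, and 0 of all genes did (0%), and DESeq2 and limma on both FPKM scales called 0 members too. Limma tested 25 members, and DESeq2 gave no adjusted p for Ccl2, Cxcl2, Cxcl9, Cxcl10 and Cxcr2. At an unadjusted p under 0.05, 1 member, Ccr2, was higher in sham JV001, against 1.61% of all genes. In 4 members the groups did not overlap with sham JV001 higher, against 5.69% of all genes, among them Ccl12, Ccl25 and Ccr2. Ccr2 had a log2 fold change of 2.17 (SE 0.79, adjusted p = 1), Ccl6 of 1.97 (SE 0.92, adjusted p = 1), Cx3cr1 of -1.87 (SE 0.91, adjusted p = 1) and Ccl9 of 1.94 (SE 1.01, adjusted p = 1). The negative value of Cx3cr1 went with 0.371, 0.140 and 0.151 CPM in sham JV001 and 1.54, 0.610 and 0.311 CPM in sham saline. Within sham JV001, library 3 was the lowest for Cxcl1, Cxcl2, Cxcl10, Ccl2, Ccl3, Ccl4, Ccl6, Ccl7 and Ccl9, and its macrophage marker mean was also the lowest of that group at 2.09 log2 CPM, against 3.03 and 3.98. The median over members was 0.89.

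The interaction asked whether the JV001 difference was larger in the CKD model than in sham animals. By edgeR 0 of 34 members passed, and 0 of all genes did (0%). At an unadjusted p under 0.05, 5 members had a positive interaction, against 2.09% of all genes. DESeq2 and both limma fits called 0 members. Limma tested 25 members, and DESeq2 gave no adjusted p for Ccl2, Cxcl2, Cxcl9, Cxcl10 and Cxcr2. The 5 at an unadjusted edgeR p under 0.05 were Ccl21a at 2.18 (SE 0.78, adjusted p = 0.84), Cx3cr1 at 3.44 (SE 1.25, adjusted p = 0.84), Cx3cl1 at 1.80 (SE 0.70, adjusted p = 0.84), Cxcl10 at 5.94 (SE 2.37, adjusted p = 0.84) and Ccl3 at 3.77 (SE 1.69, adjusted p = 0.84). The median over members was 1.21 with all libraries, 0.027 without CKD JV001 library 3 and 2.28 without CKD saline library 3. The 4 pairwise comparisons share groups, CKD JV001 and CKD saline among them, so their values are not independent of each other.

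Other genes of the pathway were read from lists chosen by function. Between CKD JV001 and CKD saline, 0 of 22 tested inducers and regulators of chemokine genes passed by edgeR, 22 of 22 were positive, against 51.4% of all genes, and 15 had an unadjusted p under 0.05, all higher, against 9.29% of all genes. The interleukin gene Il6 had 0.887, 0.557 and 13.8 CPM in CKD JV001 and 0.0740, 0 and 0.278 CPM in CKD saline, with a log2 fold change of 5.45 (SE 1.52). Tnf, which encodes tumour necrosis factor, had 3.99, 3.71 and 20.9 CPM in CKD JV001 and 0.962, 1.68 and 2.11 CPM in CKD saline, at 2.59 (SE 0.77). Both were highest in CKD JV001 library 3, like Cxcl10 and Ccl2. In sham JV001, Il6 had 0.928, 1.18 and 0.424 CPM and Tnf 4.39, 6.11 and 1.85 CPM. CKD JV001 libraries 1 and 2 lay within these sham JV001 ranges for both genes. In sham saline, Il6 had 0.225, 0.239 and 0 CPM and Tnf 2.57, 2.39 and 0.648 CPM. Rela, an NF-kB subunit, stood at 1.53 (SE 0.49). It had 41.4, 40.3 and 155 CPM in CKD JV001 and 24.5, 27.2 and 21.6 CPM in sham JV001. Without CKD JV001 library 3 the log2 fold changes were 2.62 for Il6, 1.28 for Tnf and 0.58 for Rela. The interleukin gene Il1a had 0.475, 0.239 and 0.587 CPM in CKD JV001 and 0, 0 and 0.0397 CPM in CKD saline, too few reads in CKD saline for a fold.

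Of 29 genes of receptor signalling, 27 were positive and 9 had an unadjusted p under 0.05 in the same comparison, set against the same shares of all genes, with 0 passing. They included Pik3cg, the catalytic subunit of phosphoinositide 3-kinase gamma, at 1.74 (SE 0.50), and its regulatory partner Pik3r5 at 3.83 (SE 1.43). Rgs16, which shortens Gi signals, stood at 4.06 (SE 1.22) and the Gi subunit Gnai3 at 1.53 (SE 0.55). CKD JV001 library 3 was far above libraries 1 and 2 for Pik3r5, with 1.99, 2.28 and 62.5 CPM, for Rgs16, with 3.17, 3.34 and 65.0 CPM, and for Gnai3, with 30.7, 26.9 and 106 CPM. Without that library the log2 fold changes were 0.44 for Pik3r5, 1.19 for Rgs16, 0.62 for Gnai3 and 1.89 for Pik3cg, which was not highest in library 3. Of 7 tested chemokine-related genes outside the naming rule, 6 were positive and 0 passed. Pf4, the platelet and macrophage chemokine, had 7.38, 7.35 and 16.9 CPM in CKD JV001 and 1.92, 2.74 and 10.2 CPM in CKD saline, and Ccrl2, an atypical receptor that binds chemerin, had 19.6, 16.5 and 78.0 CPM in CKD JV001 and 20.7, 21.0 and 15.1 CPM in CKD saline. The chemerin gene Rarres2 stood at 1.31 (SE 0.60) and Cd74, a receptor for Mif, at 1.42 (SE 0.66).

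The 20 members that were not tested had at most 64 reads each over the 12 libraries. Cxcl5 had 64 reads, Ccr10 had 54, Ccl28 had 52, Cxcr6 had 43 and Cxcl17 had 39. The Ccr7 ligand Ccl19 had 26 reads, all in CKD JV001 library 3, and the Ccr4 ligand Ccl17 had 11 reads, in CKD JV001 libraries 2 and 3. The Ccr4 ligand Ccl22 had 4, 12 and 5 reads in CKD JV001, 0, 0 and 0 in CKD saline, 4, 0 and 1 in sham JV001 and 0, 0 and 0 in sham saline. Ccr3, Ccr1l1, Cxcl3 and Ccl21b had 1 read each. Cxcl17 had 6, 6 and 5 reads in CKD JV001, 0, 0 and 0 in CKD saline, 0, 0 and 0 in sham JV001 and 22, 0 and 0 in sham saline. In the edgeR fit with no filter, which took in all 22584 genes, 0 of these 20 members passed in any comparison. At an unadjusted p under 0.05 there were 2 between CKD JV001 and CKD saline, Ccl22 and Cxcr6, both higher in CKD JV001, against 13.9% of all genes in either direction. Between CKD JV001 and sham JV001 there were 3, against 19.9%, between CKD saline and sham saline 1, against 4.17%, between sham JV001 and sham saline 2, against 2.4%, and for the interaction 3, against 3.79%.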

How the data were processed

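The deposited counts are raw whole reads per gene symbol. The authors' FPKM values go back to these counts. In 10249 of 10249 genes with at least 50 reads in every library, counts and FPKM gave 1 gene length at a tolerance of 0.01. Per the submitters' processing notes, the reads went through fastp, HISAT2 and HTSeq on GRCm39. Tool versions, the annotation, counting mode and strand setting were not given in the sources used here. Reads of overlapping, antisense or near-identical genes could therefore be split or shared. Column names carry group initials and a number, which were set against the labels, with C read as CKD saline.

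Counts of all 12 libraries entered 1 quasi-likelihood F test fit of 4 group means in edgeR 4.0.16, run in R 4.3.3 with filterByExpr (minimum count 10) and TMM factors. Benjamini-Hochberg adjustment covered the 15004 genes tested, and calls are at an adjusted p under 0.05. Log2 CPM used a prior count of 2, and fold changes used the default prior count of edgeR. SD is over 3 libraries per group. The SE of an edgeR fold change was back-calculated, as its size divided by the square root of the F statistic. The script was tested on simulated data with 200 changed genes, with large changes and a small spread set so that they could be recovered. That checks the script, and does not show whether changes could be found at the spread of these libraries. Promoters came from RefSeq on GRCm38.p6, and no coordinates were converted. The edgeR fit estimated the spread between libraries of 1 group, but apart from the replicate block no source of that spread was modelled. The interval given for Ccl5 covers counting error only.

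The members and all gene lists were chosen with earlier results of these data known. Values per library were given for members with a mean of at least 1 CPM, fold changes for the 5 members with the smallest p in each comparison, and up to 4 genes by p from each related list. Members named beyond this rule were picked after their values were seen. The counts cover all members, of which 1 is not reported here by name.

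Alternatives were no filter, a stricter filter (a mean of 10 reads and 1 CPM in 3 libraries), RLE factors, DESeq2 1.42.0, and limma 3.58.1 on log2(FPKM + 1) or log2(FPKM + 0.1) where the mean FPKM reached 0.5. Other fits took only the groups of a comparison, added a replicate block, left out each library in turn, or left out library 3 of both CKD groups. A fit of the CKD groups alone with the block was added after seeing the data. Same-numbered libraries of CKD JV001 and CKD saline deviated together, with correlations of 0.296, 0.289 and 0.492, so the numbers were taken to pair these groups. Deviations within a group cancel out, so library 3 standing apart in both groups could alone make all 3 correlations positive. The correlations therefore do not show that the samples are paired. The pairing comes from the data, not from the labels. In the other comparisons at least 1 correlation was 0.1 or lower.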

Additional observations from a re-analysis of the deposited data

How the results depend on the processing

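For the 5 members with the smallest p in each comparison, 382 fold changes were read under other settings. Of these, 356 kept their direction and side of the threshold, 26 moved past it and 0 reversed. Members chosen by smallest p are less likely to reverse, so that count does not describe the others. Between CKD saline and sham saline, 30 of 34 tested members were positive with all libraries and 17 of 36 without CKD saline library 3. For the interaction, 26 of 34 were positive with all libraries and 20 of 34 without CKD JV001 library 3. Between CKD JV001 and CKD saline, where edgeR called 0 members in all 12 libraries, DESeq2 called 2, and leaving out library 3 of both CKD groups gave 14. Leaving out 1 library gave 0 to 19 calls, with 19 only without CKD saline library 3, and medians of 0.84 to 3.26. Between CKD JV001 and sham JV001, DESeq2 called 12 members, limma 2 on log2(FPKM + 1) (Ccl5 and Ccl21a) and 1 on log2(FPKM + 0.1) (Ccl5), the fit of those groups alone 5 and the fit without library 3 of both CKD groups 6, with a median of 0.88. Leaving out 1 library gave medians of 0.96 to 2.79 there, -0.021 to 1.57 between CKD saline and sham saline, 0.50 to 1.13 between sham JV001 and sham saline, and 0.027 to 2.28 for the interaction. With the replicate block in the fit of all 12 libraries, 0 members were called in each comparison. With the replicate block in the fit of the CKD groups alone, the comparison that the numbers were taken to pair, 16 members and 2850 genes were called. This fit was chosen after seeing the data. RLE factors, no filter and the stricter filter also called 0 members. Over all genes, edgeR's 3 calls between CKD JV001 and sham JV001 became 7 with RLE factors, 5 with no filter, 12 with the stricter filter, 0 with the block, 74 and 10 with limma, 792 with those groups alone, 1433 without library 3 of both CKD groups and 2016 with DESeq2. DESeq2 called 54, 67, 3 and 2 genes in the comparisons in which edgeR called 0. Between CKD JV001 and CKD saline, edgeR called 3287 genes without CKD saline library 3 and 3043 without library 3 of both groups. The cause of these shifts was not tested. Ccl5, Ccl24, Ccl25, Ccr7 and Cxcr5 were under 1 CPM on average, so their values rest on few reads per library.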

Other observations

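The untested ligands Cxcl15 and Cxcl17 were read beside airway secretory genes, a set picked after values were seen. Cxcl15, a chemokine of lung and other mucosal epithelium in mouse, had 6 reads, all in sham saline library 1. Cxcl17, a mucosal chemokine, had 6, 6 and 5 reads in CKD JV001, 22 in sham saline library 1 and 0 in the other 8 libraries. Bpifa1, a secreted protein of airway epithelium, had 1907, 2224 and 0 reads in CKD JV001, 83, 102 and 0 in CKD saline, 697, 555 and 1233 in sham JV001, and 23126, 0 and 0 in sham saline. Scgb1a1, the club cell secretoglobin, had 1278, 1552 and 0 reads in CKD JV001, 17, 24 and 0 in CKD saline, 601, 209 and 839 in sham JV001, and 9487, 0 and 0 in sham saline. Cxcl5, a Cxcr2 ligand, had 3, 6 and 36 reads in CKD JV001, 2, 1 and 0 in CKD saline, 0, 0 and 1 in sham JV001 and 15, 0 and 0 in sham saline. Its highest library, CKD JV001 library 3, had 0 reads of both airway genes, and its next highest, sham saline library 1, had the most. The part of airway RNA in the counts of these members was not tested.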
